A study of Caenorhabditis elegans with 12 samples.

Results

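The genes egl-9, vhl-1, hif-1, rhy-1 and nhr-57 stand at the centre of the oxygen-sensing HIF-1 pathway of Caenorhabditis elegans, and these 5 were followed across all libraries of an RNA-seq series on vitamin C and the wrn-1 helicase. They were found by their symbols in the table of normalized counts, which lists 45327 genes. All 5 were among the 14352 that averaged 10 or more normalized counts over the libraries and so entered the tests. Poly-adenylated RNA of whole worms at the L4 larval stage, grown at 25°C, was sequenced in 4 groups of 3 biological replicates. The groups were wrn-1(gk99) mutant worms grown with 10 mM vitamin C (ascorbate, named wrn-1(gk99) vitC), untreated wrn-1(gk99) worms, wild type N2 worms grown with 10 mM vitamin C (N2 vitC), and untreated N2 worms. The gk99 allele is a deletion in the worm ortholog of the Werner syndrome helicase, and it was studied as a single strain. Worms were harvested by their stage rather than by the clock because the mutant developed more slowly, and each library pools all tissues of many animals, so that fewer cells of a type and less RNA per cell cannot be told apart.

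EGL-9 is the prolyl hydroxylase that marks the transcription factor HIF-1 for destruction when oxygen is present. It belongs to the dioxygenases that use iron and 2-oxoglutarate, and ascorbate is known to help such enzymes keep their iron in the reduced state. Hydroxylated HIF-1 is recognised by VHL-1, the substrate-binding part of a cullin ubiquitin ligase, and is degraded. RHY-1, a predicted membrane acyltransferase, is a further negative regulator that acts upstream of EGL-9 through the cysteine synthase-like protein CYSL-1, and rhy-1 is also a target of HIF-1, so that the pathway restrains itself. The nuclear receptor gene nhr-57 is a commonly used readout of HIF-1 activity in worms. The values below are transcript levels and measure neither HIF-1 protein nor hydroxylation.

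The number of reads on genes in 11 libraries lay between 13446257 and 34234211, with a median of 20591287. The library labelled N2 vitC replicate 3 stood apart from its group. Over all genes tested, its log2 values had a Pearson correlation of 0.960 to 0.961 with the other 2 N2 vitC libraries and of 0.994 to 0.996 with the wrn-1(gk99) vitC libraries. All 5 genes lay inside the wrn-1(gk99) vitC range in that library, and for hif-1, rhy-1 and nhr-57 both other N2 vitC libraries lay outside this range. Results that rest on it are therefore also given without it. Since all groups share one estimate of the spread, leaving it out also changed the p-values of comparisons that do not use it. The wrn-1 transcript itself had 854, 789 and 699.9 normalized counts in wrn-1(gk99) worms, against 516, 499 and 502 in N2, and a gene-level count that includes reads outside the deletion does not check the genotype. In the library labelled N2 vitC replicate 3 it had 614, against 407 and 380.3 in the other N2 vitC libraries. Across all genes, the log2 fold changes had medians between −0.03 and 0.01 in every comparison.

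Summed tissue markers also moved with the groups. The 5 germ line markers summed to 14799 to 16583 normalized counts in wrn-1(gk99) vitC, 17107 to 17531 in wrn-1(gk99), 9448 to 15001 in N2 vitC and 11195 to 11676 in N2. The 5 intestinal markers summed to 15636 to 16951 in wrn-1(gk99) vitC, 22230 to 22317 in wrn-1(gk99), 11423 to 16302 in N2 vitC and 13863 to 14517 in N2. The 5 neuronal markers summed to 6396 to 7183 in wrn-1(gk99) vitC, 6167 to 6776 in wrn-1(gk99), 6776 to 9894 in N2 vitC and 9046 to 9665 in N2. Germ line and intestinal sums were thus highest in untreated wrn-1(gk99), and neuronal sums were low in both mutant groups. Between the untreated strains, 3 of 5 germ line markers rose and 2 of 5 neuronal markers fell in the mutant, with none called in the other direction. In that comparison 20.4% of all genes were called higher and 23% lower. The intestinal markers were split. Most of their sum came from act-5, at 16067 ± 16.3 in wrn-1(gk99), against 9457 ± 339 in N2 (log2 fold change 0.77, limma adjusted p = 0.000125). Pept-1 also rose, while elt-2, a transcription factor that defines the intestine, fell to 782 ± 16.6 in wrn-1(gk99), against 1285 ± 37.7 in N2 (−0.71, limma adjusted p = 1.21e-05). The 5 epidermal markers summed to 53687 to 61075 in wrn-1(gk99) vitC, 56948 to 57263 in wrn-1(gk99), 56795 to 71184 in N2 vitC and 74294 to 78354 in N2. That sum is mostly the collagen gene sqt-3, and in wrn-1(gk99) against N2 the markers were split, rol-6 (1.81) and dpy-7 (0.68) rising and lin-26 (−0.96) and sqt-3 (−0.69) falling. The sums of the 4 muscle markers overlapped between all groups. Of the 5 sperm markers and of the 5 late L4 and adult markers, 1 each reached the mean of 10. The sperm sums did not exceed 38.9 normalized counts in any library. The late L4 and adult sums were 123 to 149.5 in wrn-1(gk99) vitC, 252 to 261 in wrn-1(gk99), 77.7 to 151 in N2 vitC and 124 to 154 in N2. Bli-2, the cuticle collagen gene behind most of that sum, rose in wrn-1(gk99) against N2 (0.98, limma adjusted p = 0.00167) and fell in wrn-1(gk99) vitC against wrn-1(gk99) (−0.93, limma adjusted p = 0.00797). The part of tissue or stage in the results below was not tested.

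The 5 transcripts differed widely in abundance. Per kilobase of annotated exon, hif-1 stood at 2124 ± 34.3 normalized counts in N2 (SD, n = 3), well above egl-9 at 229 ± 9.25, vhl-1 at 157 ± 13.0, nhr-57 at 139 ± 1.88 and rhy-1 at 75.2 ± 6.34. In wrn-1(gk99) worms the order changed at its lower end, with rhy-1 at 139.5 ± 9.02 normalized counts per kilobase, above nhr-57 at 92.6 ± 5.02. Exon lengths came from the WBcel235 annotation, in which egl-9 (F22E12.4), hif-1 (F38A6.3) and nhr-57 (T05B4.2) lie on chromosome V, vhl-1 (F08G12.4) on chromosome X and rhy-1 (W07A12.7) on chromosome II. The exons of rhy-1 share 82 bases with W07A12.8 on the opposite strand, and those of nhr-57 share 75 bases with lgc-1 on the same strand. The strand setting of the counting is not given in the sources used here, so reads in these stretches are uncertain in origin.

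**Figure D1:**
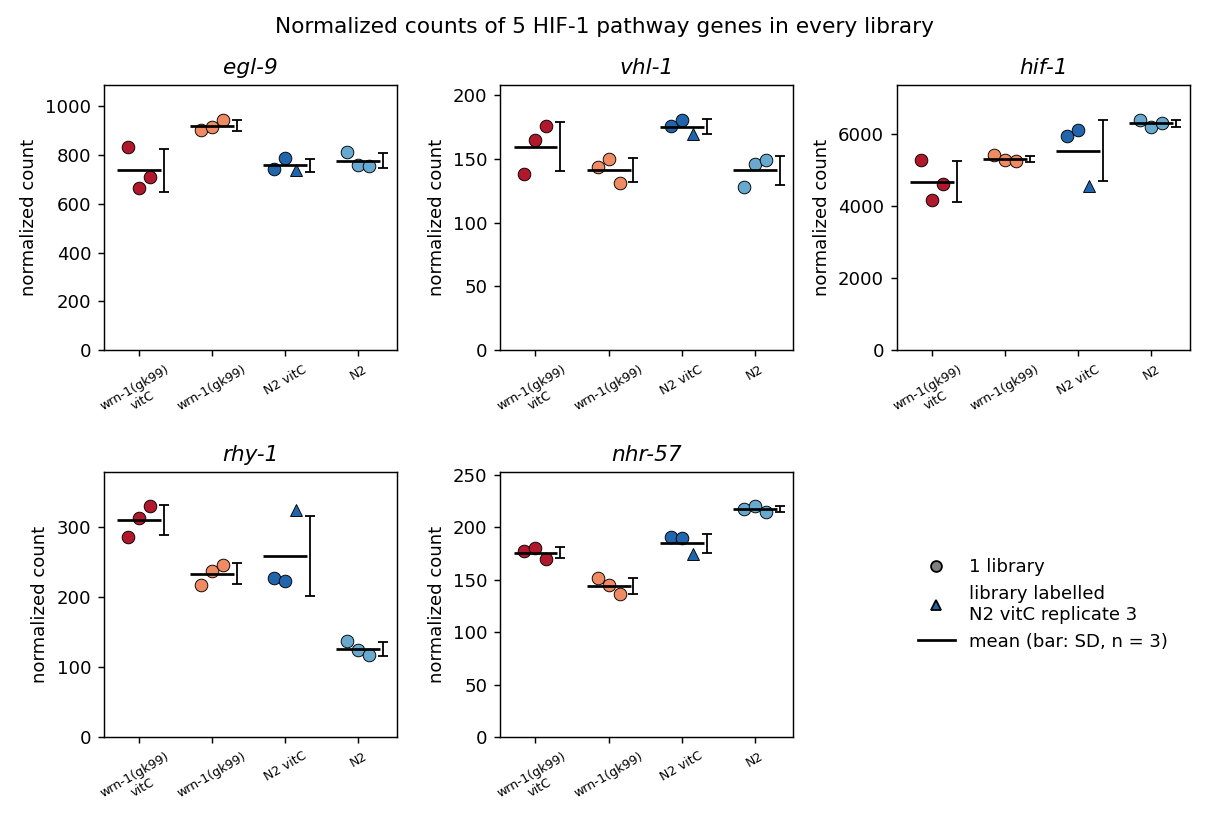
Normalized counts (vertical axes, from 0) of egl-9, vhl-1, hif-1, rhy-1 and nhr-57 in every library of the 4 groups (horizontal axes), with group means and SD (n = 3). Rhy-1 was at 116 to 137 in the N2 libraries and at 216 or more in all others, nhr-57 was highest in N2 and lowest in wrn-1(gk99), and the triangle marks the library labelled N2 vitC replicate 3.

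The hydroxylase gene egl-9 had its highest level in the untreated mutant, by a small margin. It had 834, 665 and 711 normalized counts in wrn-1(gk99) vitC, 902, 914 and 945 in wrn-1(gk99), 744, 789 and 739.7 in N2 vitC, and 813, 759.8 and 757 in N2. The 3 wrn-1(gk99) libraries were above all others, and the remaining groups overlapped. The log2 fold change of wrn-1(gk99) against N2 was 0.25 (95% interval 0.06 to 0.43), which did not pass (limma, adjusted p = 0.0258). Against untreated wrn-1(gk99), the wrn-1(gk99) vitC group was at −0.33 (interval −0.51 to −0.14), which also did not pass (limma, adjusted p = 0.0179). A gene passes here with an adjusted p under 0.01. Both differences passed without the library labelled N2 vitC replicate 3 (limma, adjusted p = 0.00674 and 0.00202) and without wrn-1(gk99) vitC replicate 1 (limma, adjusted p = 0.00944 and 0.0038), a library in which egl-9 was close to its N2 level. With the libraries scaled to equal totals, which moved the median of all genes to 0.17, egl-9 in wrn-1(gk99) against N2 was at 0.41 and passed (limma, adjusted p = 0.000991). Of 25 alternatives, however, 20 left the strain difference and 21 the mutant's vitamin C difference short of passing. The highest adjusted p was 0.0909 for the first (DESeq2, run without wrn-1(gk99) replicate 3) and 0.0747 for the second (limma, without wrn-1(gk99) vitC replicate 2). In N2, vitamin C left egl-9 at a log2 fold change of −0.04 (interval −0.22 to 0.15, limma adjusted p = 0.809).

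Vhl-1, which reads the mark left by EGL-9, did not pass in any comparison. It had 138, 165 and 175 normalized counts in wrn-1(gk99) vitC, 143, 149.8 and 131 in wrn-1(gk99), 175, 181 and 169 in N2 vitC, and 128, 146 and 149 in N2. The N2 vitC libraries were above the N2 libraries without overlap, with a log2 fold change of 0.32 (interval 0.06 to 0.57, limma adjusted p = 0.0726, or 0.0282 with N2 vitC replicate 3 left out). The 2 untreated strains overlapped for this gene, at 0.01 (interval −0.25 to 0.26, limma adjusted p = 0.964). Vhl-1 rests on 95 to 254 reads per library over 11 libraries, the fewest beside rhy-1, with 93 to 388.

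The hif-1 transcript, the most abundant of the 5, was highest in untreated N2. It had 5269, 4152 and 4591 normalized counts in wrn-1(gk99) vitC, 5393, 5269 and 5241 in wrn-1(gk99), 5945, 6098 and 4545 in N2 vitC, and 6389, 6186 and 6289 in N2. No library of another group reached the N2 range, the other 3 groups overlapped with their neighbours in level, and the library labelled N2 vitC replicate 3 was far below its 2 companions. Hif-1 fell to a mean of 4671 ± 563 in wrn-1(gk99) vitC, against 6288 ± 101 in N2 (SD, n = 3 each), a ratio of 0.743 and a log2 fold change of −0.44 (limma, adjusted p = 0.00981). This call lies at the threshold. It was lost when any 1 of 8 libraries was left out, those of N2, those of wrn-1(gk99), or replicate 2 or 3 of wrn-1(gk99) vitC, with limma's adjusted p then between 0.0162 and 0.0427, and over the 12 such fits the log2 fold change stayed between −0.53 and −0.35. With N2 vitC replicate 3 left out, the adjusted p was 4.57e-05. With the libraries scaled to equal totals, where the median of all genes was 0.185 in this comparison, hif-1 was at −0.26 and did not pass (limma, adjusted p = 0.0338). Untreated wrn-1(gk99) against N2 was at −0.25 (interval −0.49 to 0.00), which did not pass (limma, adjusted p = 0.0759) but passed without that library (0.00371), and was at −0.08 with equal totals (0.441). For N2 vitC against N2 the value was −0.20 with it (limma, adjusted p = 0.236) and −0.06 without it (0.512).

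Rhy-1 showed the widest range of the 5 genes as a ratio of highest to lowest library and was lowest in untreated N2. It had 286, 313 and 329 normalized counts in wrn-1(gk99) vitC, 216, 236 and 246 in wrn-1(gk99), 227, 223 and 324 in N2 vitC, and 137, 123 and 116 in N2. Every library of the other 3 groups was above every N2 library. The gene rose in wrn-1(gk99) against N2 by 1.85-fold, a log2 fold change of 0.89 (SE 0.14; interval 0.58 to 1.196, limma adjusted p = 0.000263). In N2 worms it rose with vitamin C to 258 ± 57.3, against 126 ± 10.6 without it (SD, n = 3 each), a ratio of 2.06 and a log2 fold change of 1.02 (SE 0.14; interval 0.71 to 1.32, limma adjusted p = 0.000384). With that group's outlying replicate 3 left out, the ratio was 1.79 and the log2 fold change 0.84 (limma, adjusted p = 5.75e-06). The ratio over all libraries thus reached 2-fold only with that library. In a fit of these 2 groups alone, with all their libraries, limma's adjusted p for rhy-1 was 0.02. Of all genes, 2.1% passed in that fit, against 12.7% in the main fit.

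In the mutant, where rhy-1 was already higher, the wrn-1(gk99) vitC libraries were again above the untreated ones without overlap, at a log2 fold change of 0.41 (interval 0.10 to 0.72). That difference did not pass with all libraries (limma, adjusted p = 0.0653) and passed when N2 vitC replicate 3 was left out (0.00181). The response of rhy-1 to vitamin C was smaller in the mutant than in N2 by 0.61 on the log2 scale, and this difference of responses did not pass either (limma, adjusted p = 0.043, or 0.0151 without that library). Against untreated N2, wrn-1(gk99) vitC worms had 2.46 times as much rhy-1 (309 ± 21.8 against 126 ± 10.6, SD, n = 3 each, limma adjusted p = 4.74e-05), and this call was kept under all 25 alternatives. The overlapping gene W07A12.8 had group means of 21.0 normalized counts or fewer.

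Nhr-57, the common readout of HIF-1 activity, was lower in the mutant. It had 178, 180.0 and 169.6 normalized counts in wrn-1(gk99) vitC, 152, 144.9 and 136 in wrn-1(gk99), 191, 189.5 and 174 in N2 vitC, and 218, 220.1 and 214 in N2. The highest group was N2 and the lowest wrn-1(gk99), neither overlapping any other, and the 2 vitamin C groups lay between them and overlapped. Nhr-57 fell to 144 ± 7.82 in wrn-1(gk99), against 217 ± 2.93 in N2 (SD, n = 3 each), a ratio of 0.664 and a log2 fold change of −0.59 (SE 0.09; interval −0.78 to −0.39, limma adjusted p = 0.000178). With vitamin C the log2 fold change was 0.28 in wrn-1(gk99) (interval 0.09 to 0.48, limma adjusted p = 0.0439) and −0.23 in N2 (limma, adjusted p = 0.0824), neither of which passed.

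The direction of the nhr-57 difference with vitamin C was therefore opposite in the 2 strains, without overlap in either. The difference between the responses was 0.52 on the log2 scale (interval 0.24 to 0.79), just short of the threshold (limma, adjusted p = 0.0102), and past it without the library labelled N2 vitC replicate 3 (0.48; adjusted p = 0.00404). Without that library the mutant's own difference also passed (limma, adjusted p = 0.00963), while that of N2 did not (−0.19; 0.0856). Against untreated N2, wrn-1(gk99) vitC worms were at −0.30 (limma, adjusted p = 0.0184, or 0.00367 without that library), and at −0.13 with equal totals (0.277). The gene lgc-1, which shares exon bases with nhr-57, had a group mean of 20.0 normalized counts in N2.

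**Figure D2:**
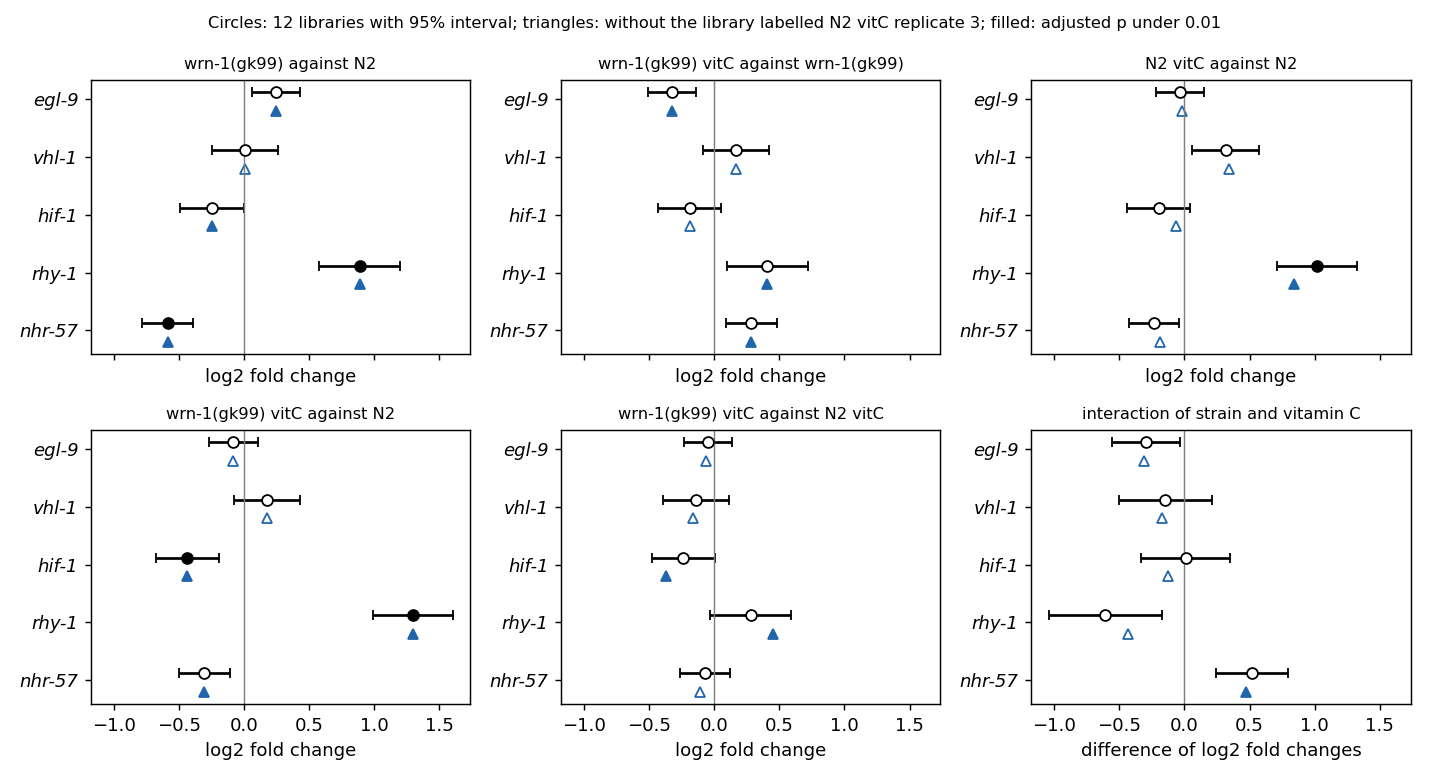
Log2 fold changes (horizontal axes) of the 5 genes in 5 comparisons, and the difference of the vitamin C responses of both strains, from 12 libraries (circles, with 95% intervals) and without the library labelled N2 vitC replicate 3 (triangles); filled symbols have a limma adjusted p under 0.01. Rhy-1 is at 0.89, 1.02 and 1.29 in the 3 comparisons with a filled circle, and the triangles of N2 vitC against N2 lie at 0.84 for rhy-1 and −0.06 for hif-1.

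Set against all genes, the share of calls among the 5 was close to that of all genes in the strain comparison. In wrn-1(gk99) against N2, rhy-1 rose and nhr-57 fell, 2 of 5 genes, where 43.4% of all genes tested passed (20.4% higher and 23% lower in the mutant), and 4 of 5 had groups that did not overlap, against 75.8% of all genes. In N2 vitC against N2, 1 of 5 passed, rhy-1, where 12.7% of all genes did (5.26% higher and 7.48% lower), and 4 of 5 did not overlap, against 32.8%. In wrn-1(gk99) vitC against wrn-1(gk99), 0 of 5 passed by limma, edgeR or DESeq2, and 3 of 5 had an unadjusted limma p under 0.05. There 10.3% of all genes passed (6.05% higher and 4.24% lower), and 3 of 5 did not overlap, against 50.7%. In wrn-1(gk99) vitC against N2, rhy-1 and hif-1 passed, 2 of 5 where 22.1% of all genes did (8.4% higher and 13.7% lower), and 3 of 5 did not overlap, against 63.6%. These comparisons share libraries and are not independent of each other. All 4 shares of passing genes were larger with N2 vitC replicate 3 left out, and these are the background for counts given without it. They were 62.9% in wrn-1(gk99) against N2, 36.4% in N2 vitC against N2, 28.5% in wrn-1(gk99) vitC against wrn-1(gk99) and 50.4% in wrn-1(gk99) vitC against N2.

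Between the 2 vitamin C groups no call was made with all libraries. In wrn-1(gk99) vitC against N2 vitC, 0 of 5 passed or reached an unadjusted limma p under 0.05, 0 of 5 passed by edgeR or DESeq2, and all 5 overlapped, where 16.3% of all genes did not. Of all genes, 0% passed by limma, although 6016 had an unadjusted p under 0.05, edgeR called 0 and DESeq2 25. Without the library labelled N2 vitC replicate 3, limma called 7468 of all genes and 2 of the 5, hif-1 at −0.37 (adjusted p = 0.000461) and rhy-1 at 0.45 (adjusted p = 0.00102). For the difference of the vitamin C responses between strains, 0 of 5 passed by limma, edgeR or DESeq2 where 14.9% of all genes passed limma, 9.29% with a higher and 5.62% with a lower response in the mutant, and 3 of 5 had an unadjusted limma p under 0.05. EdgeR called 1586 of all genes there and DESeq2 2354. The stricter criteria of the study, which add a 2-fold ratio of means and a minimum group mean, were applied here to limma's adjusted p, where the study used DESeq. For the difference of responses, a 2-fold difference taken from the log2 values stood in for the ratio. By these criteria rhy-1 in N2 vitC against N2 and in wrn-1(gk99) vitC against N2 met all requirements, where 2.49% and 3.7% of all genes did. In the other comparisons 0 of 5 met them, against 10.8% of all genes in wrn-1(gk99) against N2, 1.8% in wrn-1(gk99) vitC against wrn-1(gk99) and 6.14% for the difference of responses.

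Other components of the pathway were read from a list of 8 regulators and partners of HIF-1, all of which were tested. In wrn-1(gk99) against N2, 1 of 8 rose and 2 fell, where 43.4% of all genes passed, with a median log2 fold change of −0.11, against 0.01 for all genes. Elc-1, the elongin C of the VHL-1 ubiquitin ligase, rose to 655 ± 14.5 normalized counts in wrn-1(gk99), against 416 ± 44.9 in N2 (log2 fold change 0.66, SE 0.08, limma adjusted p = 3.95e-05). Aha-1, the partner with which HIF-1 binds DNA, fell to 635 ± 15.6 in wrn-1(gk99), against 926 ± 52.1 in N2 (−0.54, SE 0.08, limma adjusted p = 0.000213). Rbx-1, the RING subunit of cullin ligases, was at −0.29 (limma, adjusted p = 0.00987), again at the threshold. Elc-1 and rbx-1, which serve the same ligase, thus differed in direction.

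With vitamin C, elc-1 was the 1 gene of the 8 that rose in N2, to 618 ± 13.4 in N2 vitC, against 416 ± 44.9 in N2 (0.58, limma adjusted p = 0.000446). There 5.26% of all genes were higher. In the mutant 0 of the 8 passed by limma, edgeR or DESeq2 (1 had an unadjusted limma p under 0.05), where 10.3% of all genes passed limma. Elc-1 stayed at 633 ± 12.3 in wrn-1(gk99) vitC, against 655 ± 14.5 in wrn-1(gk99). The medians of the 8 were −0.06 in N2 and 0.03 in the mutant. Against untreated N2, wrn-1(gk99) vitC worms had elc-1 at 0.61 (limma, adjusted p = 0.000203) and aha-1 at −0.34 (limma, adjusted p = 0.00852). The aha-1 call was lost with edgeR, which called 0 of the 8 lower there (1 with an unadjusted p under 0.05, and 2 by limma). With N2 vitC replicate 3 left out, the counts of wrn-1(gk99) against N2 became 2 higher and 3 lower, those of the mutant with vitamin C 1 and 0, and those of N2 with vitamin C 1 and 1.

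A list of 10 genes reported as HIF-1 targets, beside rhy-1 and nhr-57, did not move in one direction. The list includes ftn-1, which HIF-1 represses, so its counts and medians do not give a direction of HIF-1 activity. In wrn-1(gk99) against N2, 2 of 10 rose and 2 fell (median −0.18), where 20.4% of all genes were higher and 23% lower. Cysl-2, a cysteine synthase-like enzyme that detoxifies cyanide, had 871, 876 and 845 normalized counts in wrn-1(gk99), against 319.7, 322 and 336 in N2 (log2 fold change 1.40, SE 0.19, limma adjusted p = 6.44e-05). Smf-3, an intestinal divalent metal importer, had 66.0, 78.5 and 59.6 in wrn-1(gk99), against 24.2, 21.2 and 29.9 in N2 (1.41, limma adjusted p = 0.000125). No mutant library overlapped an N2 library for either gene.

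The 2 targets that fell in the mutant were ftn-1 and cdo-1. Ftn-1, an intestinal ferritin that HIF-1 represses, had 223, 189.5 and 257 normalized counts in wrn-1(gk99), against 707, 776 and 777 in N2 (−1.76, SE 0.17, limma adjusted p = 5.48e-06). Cdo-1, the cysteine dioxygenase, had 928, 900.4 and 911 in wrn-1(gk99), against 1487, 1536 and 1455 in N2 (−0.71, limma adjusted p = 2.1e-06). Fmo-2, a flavin monooxygenase induced downstream of HIF-1, had 192, 186 and 202 in wrn-1(gk99), against 21.5, 38.5 and 18.1 in N2, but was at 9.42, 23.5 and 290.3 in N2 vitC. The last of these is the library labelled N2 vitC replicate 3, and the log2 fold change of 2.92 between the untreated strains did not pass with it in the fit (limma, adjusted p = 0.0129) and passed without it (1.64e-07). Without it the count in this comparison became 3 higher and 4 lower.

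With vitamin C in the mutant, 1 of the 10 targets rose and 1 fell (median −0.03), where 6.05% of all genes were higher and 4.24% lower. Cdo-1 had 1269.9, 1357 and 1340.4 normalized counts in wrn-1(gk99) vitC, against 928, 900.4 and 911 in wrn-1(gk99) (0.53, limma adjusted p = 9.11e-05). Smf-3 had 24.6, 36.0 and 26.3 in wrn-1(gk99) vitC, against 66.0, 78.5 and 59.6 in wrn-1(gk99) (−1.22, limma adjusted p = 0.0014). For both genes these differences ran opposite to those between untreated wrn-1(gk99) and N2, which share the wrn-1(gk99) libraries. In N2 with vitamin C, 0 of the 10 rose by limma, edgeR or DESeq2 (1 was higher with an unadjusted limma p under 0.05), and 2 fell (median 0.17). By limma, 5.26% of all genes were higher there and 7.48% lower. The targets that fell were ftn-1, with 364, 369 and 234 in N2 vitC, against 707, 776 and 777 in N2 (−1.25, limma adjusted p = 0.000316), and sqrd-1, the sulfide:quinone oxidoreductase, at −0.78 (limma, adjusted p = 0.00749). With N2 vitC replicate 3 left out, the counts were 1 higher and 2 lower in the mutant, and 2 higher and 2 lower in N2. The 2 higher in N2 were phy-2 at 0.95 (limma, adjusted p = 5.49e-10) and vab-1 at 0.465 (0.000209). The median in N2 then changed sign, to −0.12.

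Against untreated N2, 2 of the 10 targets rose and 1 fell in wrn-1(gk99) vitC worms (median −0.12), where 8.4% of all genes were higher and 13.7% lower. Fmo-2 had 275, 303 and 285 normalized counts in wrn-1(gk99) vitC, against 21.5, 38.5 and 18.1 in N2 (3.49, limma adjusted p = 0.00866). EdgeR and DESeq2 each called 1 of the 10 higher there. Cysl-2 was at 0.88 (limma, adjusted p = 0.00374) and ftn-1 at −1.84 (limma, adjusted p = 1.36e-05). Cysl-2 and ftn-1 thus also differed between wrn-1(gk99) vitC and untreated N2, a comparison that joins strain and vitamin C. Smf-3 and cdo-1 did not pass there with all libraries (0.19 and −0.17, limma adjusted p = 0.457 and 0.0368). Cdo-1 passed with N2 vitC replicate 3 left out (limma, adjusted p = 0.00443), and the counts were 2 higher and 3 lower. Between the 2 vitamin C groups, 0 of the 10 targets passed by limma, edgeR or DESeq2 with all libraries, where 0% of all genes passed limma. There 3 were higher and 3 lower with an unadjusted limma p under 0.05. With N2 vitC replicate 3 left out, 3 were higher and 3 lower past the threshold, where 52.0% of all genes passed.

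**Figure D3:**
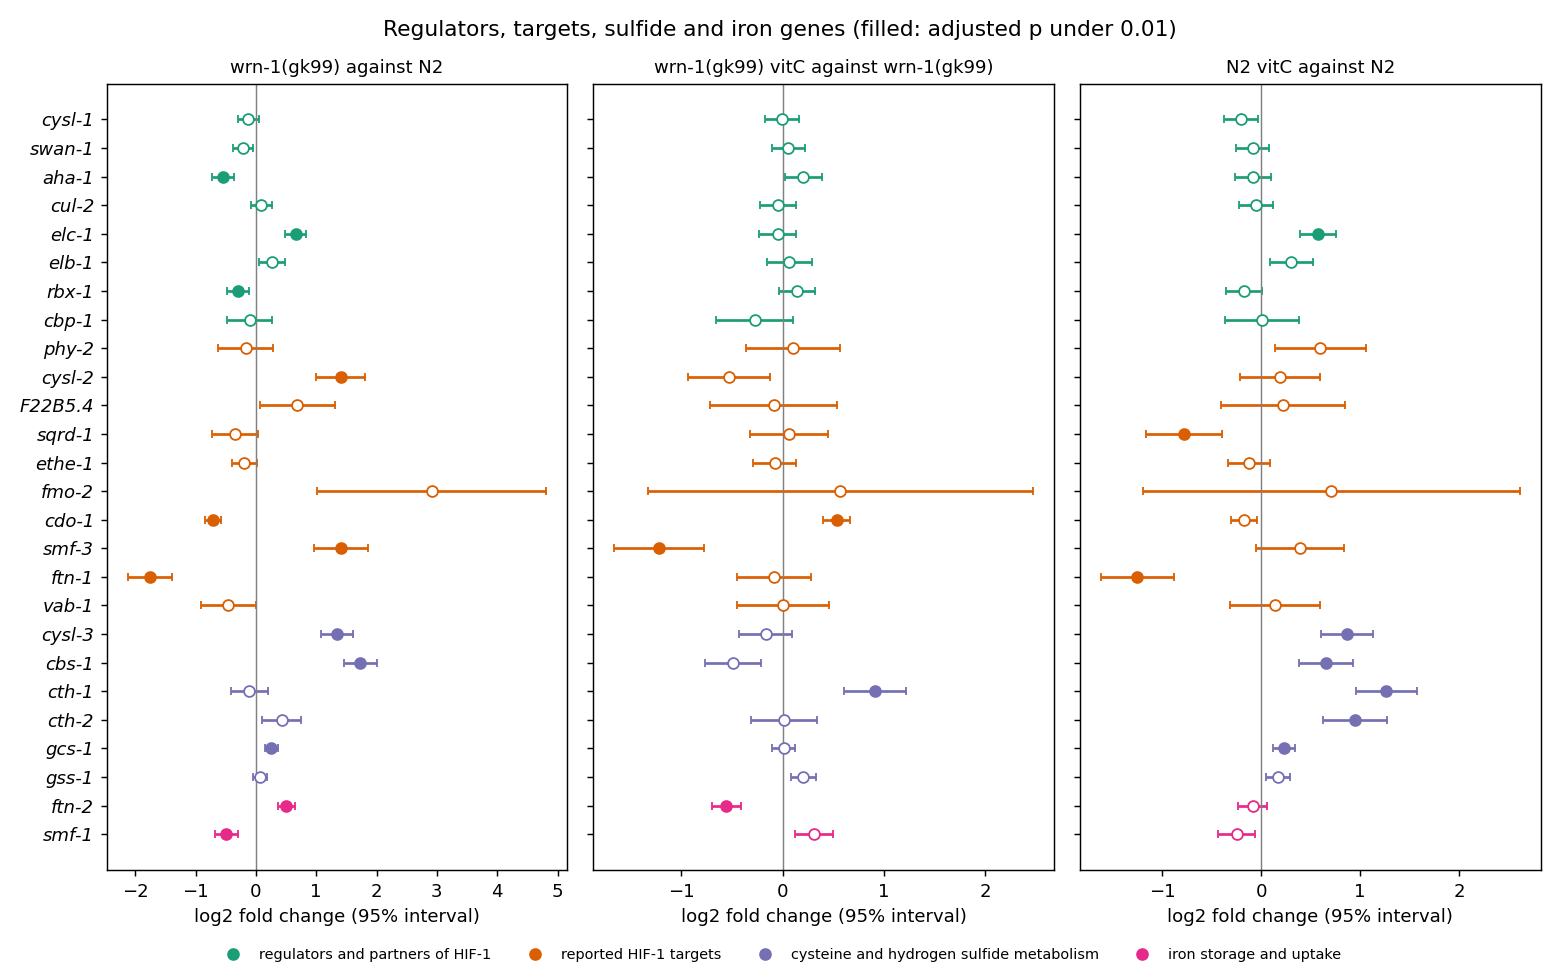
Log2 fold changes with 95% intervals (horizontal axes) of HIF-1 regulators, reported HIF-1 targets and genes of cysteine, sulfide and iron metabolism in 3 comparisons; filled points have a limma adjusted p under 0.01, and a gene in several lists is drawn once. In wrn-1(gk99) against N2 the filled targets lie on both sides of 0, cysl-2 at 1.40 and ftn-1, which HIF-1 represses, at −1.76. Fmo-2 has the longest interval of the genes drawn.

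Genes of cysteine and hydrogen sulfide metabolism were examined because hydrogen sulfide signals to EGL-9 through CYSL-1. Of 14 genes listed, 13 were matched in the table and 11 were tested, 5 of which also stand in the lists above. In wrn-1(gk99) against N2, 4 of 11 rose and 1 fell (median 0.07), close to the 43.4% of all genes that passed. Cbs-1, a cystathionine beta-synthase, had 661, 658 and 737 normalized counts in wrn-1(gk99), against 211, 209.5 and 197 in N2 (log2 fold change 1.73, SE 0.12, limma adjusted p = 5.64e-07). Cysl-3 was at 1.35 (limma, adjusted p = 3.18e-06). The other passing genes were cysl-2, cdo-1 and gcs-1, the glutamate-cysteine ligase that starts glutathione synthesis, at 0.26 (limma, adjusted p = 0.00124).

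In N2 with vitamin C, 5 of the 11 rose and 1 fell, where 5.26% of all genes were higher and 7.48% lower (median 0.19, against −0.03 for all genes). Cth-1, a cystathionine gamma-lyase that releases cysteine, had 1305, 1379 and 859 normalized counts in N2 vitC, against 489, 489 and 465 in N2 (1.26, SE 0.14, limma adjusted p = 8.69e-05). Its paralog cth-2 had 8539, 8464 and 5227 in N2 vitC, against 3699.6, 3708 and 3834 in N2 (0.95, limma adjusted p = 0.000835). For both genes the library labelled N2 vitC replicate 3 was the lowest of its group, and the log2 fold changes without it were 1.48 and 1.18. Cysl-3 was at 0.87 (limma, adjusted p = 0.000381), cbs-1 at 0.66 (limma, adjusted p = 0.00268) and gcs-1 at 0.23 (limma, adjusted p = 0.00639).

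In the mutant with vitamin C, 2 of the 11 rose and 0 fell by limma, edgeR also calling 0 lower and DESeq2 0 (median 0.01, 2 lower with an unadjusted limma p under 0.05). By limma, 6.05% of all genes were higher there and 4.24% lower. Cth-1 had 851, 839 and 833 normalized counts in wrn-1(gk99) vitC, against 424, 444 and 471 in wrn-1(gk99) (0.91, limma adjusted p = 0.000863), and cdo-1 was the other. Cbs-1, which rose in N2 with vitamin C, was at −0.49 in the mutant and did not pass (484, 493 and 487 in wrn-1(gk99) vitC, against 661, 658 and 737 in wrn-1(gk99), limma adjusted p = 0.0169), but passed without the library labelled N2 vitC replicate 3 (3.5e-05). Cysl-2 was at −0.53 (limma, adjusted p = 0.0694, or 5.81e-06 without it), and without that library the counts were 3 higher and 2 lower. Against untreated N2, 6 of 11 rose in wrn-1(gk99) vitC and 0 fell by limma, edgeR or DESeq2 (median 0.27, 2 lower with an unadjusted limma p under 0.05), where 8.4% of all genes were higher. They included cbs-1 at 1.24 (limma, adjusted p = 2.65e-05), cysl-3 at 1.18 (limma, adjusted p = 2.86e-05), cysl-2 at 0.88 as given above and cth-1 at 0.80 (limma, adjusted p = 0.00127). The counts were 7 higher and 1 lower with N2 vitC replicate 3 left out.

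**Figure D4:**
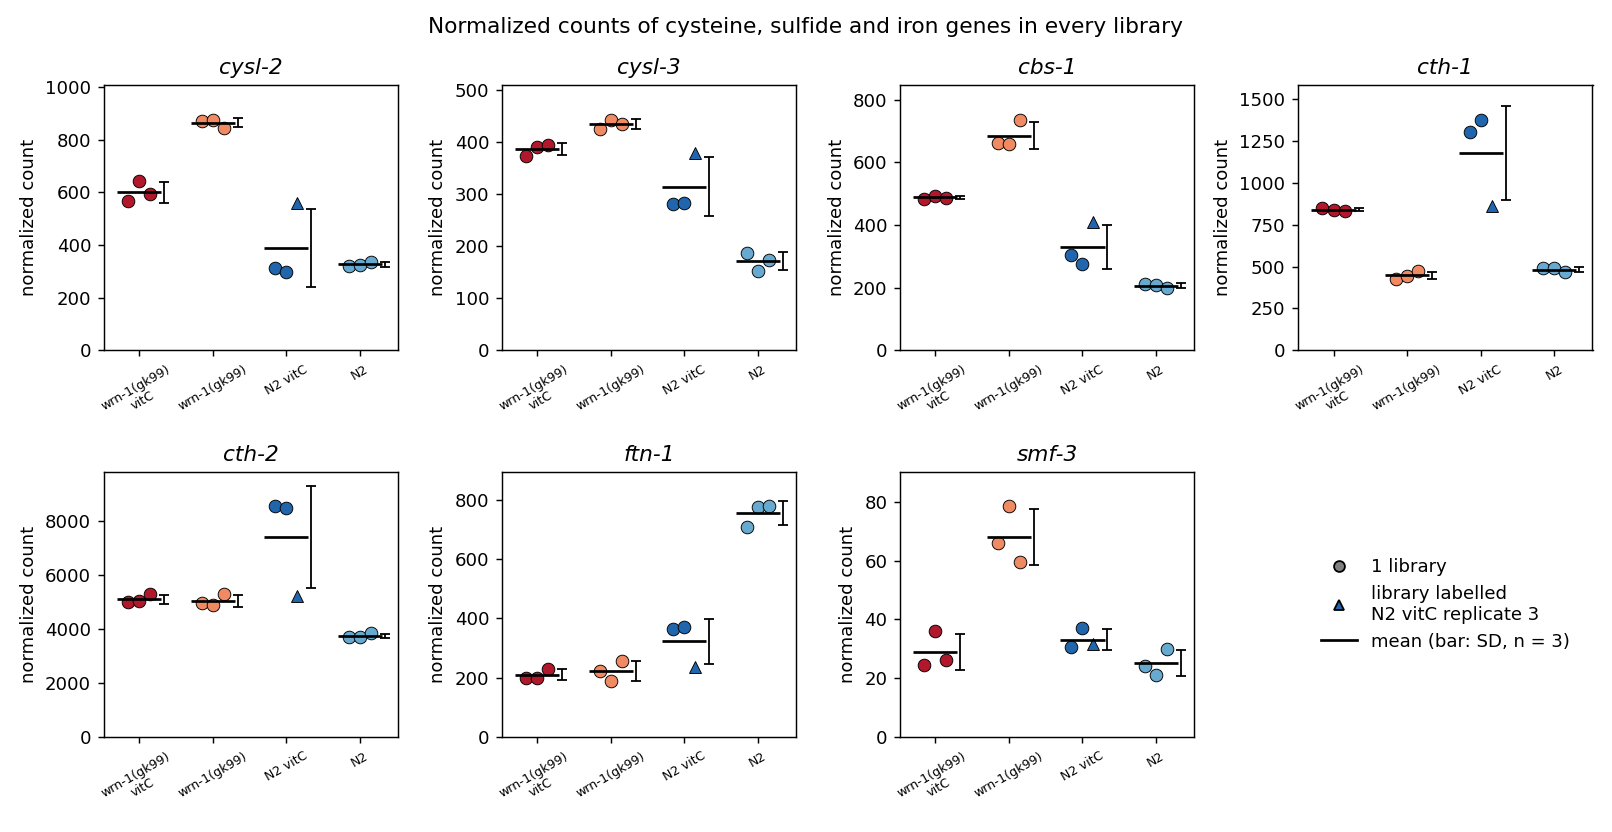
Normalized counts (vertical axes, from 0) of cysl-2, cysl-3, cbs-1, cth-1, cth-2, ftn-1 and smf-3 in every library of the 4 groups (horizontal axes), with means and SD (n = 3). Cth-1 is at 833 or more in the libraries with vitamin C and at 489 or less in those without it, ftn-1 is at 707 or more in N2 and at 369 or less elsewhere, and smf-3 is at 59.6 or more in untreated wrn-1(gk99) and at 37.2 or less elsewhere.

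Iron is the metal that EGL-9 needs, and 4 of 5 listed genes of iron storage and uptake were tested. In wrn-1(gk99) against N2 all 4 passed, 2 higher and 2 lower, where 43.4% of all genes did, and both ferritins moved apart. Ftn-2, the ferritin expressed more broadly, rose to 4923 ± 290 in wrn-1(gk99), against 3472 ± 138 in N2 (0.50, limma adjusted p = 6.18e-05), while ftn-1 fell as given above. The importers also moved apart, smf-3 as above and smf-1 at −0.49 (limma, adjusted p = 0.000541). With vitamin C in the mutant, ftn-2 fell to 3350 ± 176 in wrn-1(gk99) vitC, against 4923 ± 290 in wrn-1(gk99) (−0.55, limma adjusted p = 0.00014), and smf-3 was the other of 2 that fell. There 4.24% of all genes were lower. In N2 with vitamin C only ftn-1 of the 4 passed, where 12.7% of all genes did, and smf-1 was at −0.24 (limma, adjusted p = 0.0612). With N2 vitC replicate 3 left out, smf-1 passed at −0.29 in N2 (limma, adjusted p = 0.00752) and at 0.31 in the mutant with vitamin C (limma, adjusted p = 0.00283), so that the counts were 0 higher and 2 lower in N2 and 1 higher and 2 lower in the mutant. The medians of the 4 were 0.01 in wrn-1(gk99) against N2, −0.32 in the mutant with vitamin C and −0.16 in N2 with vitamin C.

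Of 5 other prolyl and lysyl hydroxylases, which act on collagen or related proteins, 4 were tested. In N2 with vitamin C, dpy-18, a collagen prolyl hydroxylase, had 13841, 13961 and 8275 normalized counts in N2 vitC, against 6249, 6361 and 6118 in N2 (0.91, limma adjusted p = 0.00157, and 1.16 without the library labelled N2 vitC replicate 3). Phy-2, a second collagen prolyl hydroxylase that also stands in the list of reported HIF-1 targets, had 5289, 5190 and 2536 in N2 vitC, against 2708, 2760 and 2672 in N2. Its log2 fold change of 0.60 did not pass (limma, adjusted p = 0.0607), whereas without that library it was 0.95 (5.49e-10). The lysyl hydroxylase gene let-268 fell in wrn-1(gk99) against N2 (−0.55, limma adjusted p = 0.000429), and phy-4 rose in wrn-1(gk99) vitC against N2 (1.89, limma adjusted p = 0.000643) at a level of 20.9 ± 2.87 normalized counts in wrn-1(gk99) vitC, against 4.89 ± 0.793 in N2. In the mutant with vitamin C 0 of the 4 passed by limma, edgeR or DESeq2 with all libraries (3 had an unadjusted limma p under 0.05), where 10.3% of all genes passed limma. With N2 vitC replicate 3 left out, 2 were higher and passed, where 28.5% of all genes passed.

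Glycolytic genes are classical HIF-1 targets in mammals. Of 19 listed genes 17 were tested, and 3 of 17 rose in wrn-1(gk99) against N2 (median 0.07), close to the 20.4% of all genes that were higher, and 0 fell by limma, edgeR or DESeq2 or had a lower value with an unadjusted limma p under 0.05. The fructose-bisphosphate aldolase gene aldo-2 rose to 14560.1 ± 536 in wrn-1(gk99), against 5198 ± 259 in N2 (1.49, limma adjusted p = 0.000142). The lactate dehydrogenase gene ldh-1 was at 0.49 (limma, adjusted p = 8.41e-05) and the pyruvate kinase gene pyk-1 at 0.31 (limma, adjusted p = 0.00134). With vitamin C 0 of the 17 passed by limma in either strain, although 6 in the mutant and 5 in N2 had an unadjusted p under 0.05, edgeR calling 0 and DESeq2 1, in N2. By limma, 10.3% of all genes passed in the mutant with vitamin C and 12.7% in N2. Without the library labelled N2 vitC replicate 3, 6 of 17 rose in wrn-1(gk99) against N2, 1 rose and 4 fell in the mutant with vitamin C, and 2 rose and 4 fell in N2 with vitamin C. Against untreated N2, wrn-1(gk99) vitC worms had 2 of 17 higher, where 8.4% of all genes were. These were aldo-2 at 1.00 (limma, adjusted p = 0.00444) and ldh-1 at 0.31 (limma, adjusted p = 0.00416). With N2 vitC replicate 3 left out, 6 were higher and 1 lower.

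The genes whose log2 values ran closest to each of the 5 over the 12 libraries were ranked by Pearson's r, as a description of libraries that share groups. For hif-1 they were tat-1, an aminophospholipid translocase (r = 0.994), W05F2.7 (0.986) and tub-2, a Tubby-related gene (0.979). For rhy-1 they were cdr-4, a cadmium-responsive gene (0.981), R11F4.1 (0.977) and F54E2.1 (0.977). For nhr-57 they were tts-2 (0.993), dct-1, the worm relative of the mitophagy receptor BNIP3 (0.990), and K08D12.3 (0.989). The closest to egl-9 were C46H3.2 (0.934), C56G2.1 (0.933) and sdha-1, a subunit of succinate dehydrogenase (0.929), and to vhl-1 ttr-33 (0.903), F47B8.5 (0.90) and nhr-123 (0.896). Among the 5 genes themselves, hif-1 and rhy-1 had the strongest correlation (r = −0.849), and the 2 HIF-1 targets rhy-1 and nhr-57 ran against each other (r = −0.627). The 12 libraries fall into 4 groups, so these values mostly describe group means.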

How the data were processed

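Per the labels and the study's methods, the authors prepared TruSeq libraries from whole L4 worms, read them as 50-base sequences (HiSeq), placed these on ce10 with TopHat, counted them with htseq-count and scaled every library by a DESeq size factor. The deposited signal is the resulting normalized count in 12 single-library columns, and versions and the strand setting are not given in the sources used here. All nonzero values of each of the 12 libraries were whole multiples of 1 step (100%, tolerance 0.01), which gave the reads behind them. In wrn-1(gk99) replicate 3 the step of 0.994 was too close to 1 for its values to be accepted as recovered reads, so edgeR 4.0.16 and DESeq2 1.42.0 ran on the other 11 libraries as alternatives.

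The main test was limma 3.58.1 in R 4.3.3 (lmFit, eBayes with trend) on log2(normalized count + 1), which understates changes of low genes, fitted to all 12 libraries and 4 groups at once. Genes averaging under 10 were left out. Benjamini-Hochberg adjustment covered 14352 genes, and a gene passed with an adjusted p under 0.01. In the main fit, comparisons of 2 groups are of 3 against 3 libraries, where an exact permutation test of a single gene cannot go below p = 0.1, so none is quoted. The difference of responses uses all 4 groups. EdgeR and DESeq2 had fewer libraries wherever untreated wrn-1(gk99) entered, so a different call by them is not an effect of the tool alone. A ratio is that of group means. Lists name up to 4 passing genes per comparison by size of change, and every passing regulator. Fmo-2, phy-2, vab-1 and genes named beside a value that did not pass were added after their values were seen. The 5 genes and all lists were chosen with earlier results of these data known. One listed gene, sqrd-2, was not matched by symbol, and gpd-2 was listed at 0 in all libraries. Exons and chromosomes came from WBcel235, which is not the authors' build, and no sequences are given. The test was checked on simulated counts, drawn with the same dispersion for all genes and with no library standing apart from its group. That check therefore does not cover a library like N2 vitC replicate 3. Alternatives covered the pseudocount, the filter, the scaling, the groups fitted, the trend, the threshold, the tool, the replicate number as a block and each library left out.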

Additional observations from a re-analysis of the deposited data

Results flagged for a closer look

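The response to vitamin C differed between the strains for several genes, by the difference of the log2 fold changes (mutant minus N2). For nhr-57 it was 0.52, short of the threshold (limma, adjusted p = 0.0102), and it is listed because all libraries of the mutant lay above the untreated ones while those of N2 lay below.

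Among the regulators, elc-1 had a difference of −0.62 (limma, adjusted p = 0.00205). Among the reported HIF-1 targets, cdo-1 was at 0.71 (limma, adjusted p = 0.000102), smf-3 at −1.61 (0.00162) and ftn-1 at 1.17 (0.00375). In the cysteine and sulfide list, cysl-3 was at −1.03 (limma, adjusted p = 0.000954), cbs-1 at −1.15 (0.00058) and cth-2 at −0.93 (0.00667). In the iron list, ftn-2 was at −0.47 (limma, adjusted p = 0.00314) and smf-1 at 0.55 (0.00593). Among all genes tested, 14.9% passed for this difference of responses, 9.29% with a higher and 5.62% with a lower response in the mutant. For cdo-1, smf-3, cysl-3, cbs-1 and smf-1 the libraries of the 2 strains moved in opposite directions without overlap. These genes were picked because their difference of responses passed, so opposite movement is more likely among them. The share of all genes that moved in opposite directions without overlap was not counted. In either direction, groups did not overlap for 50.7% of all genes in wrn-1(gk99) vitC against wrn-1(gk99) and for 32.8% in N2 vitC against N2. Each of the differences named uses the library labelled N2 vitC replicate 3. With it left out they were −0.62 for elc-1, 0.68 for cdo-1, −1.64 for smf-3, 0.95 for ftn-1, −0.89 for cysl-3, −0.98 for cbs-1, −1.17 for cth-2, −0.47 for ftn-2 and 0.60 for smf-1, all past the threshold. So were 34.1% of all genes.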

How the results depend on the processing

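The number of the 5 genes that passed was 2 in wrn-1(gk99) against N2, 0 in wrn-1(gk99) vitC against wrn-1(gk99), 1 in N2 vitC against N2, 2 in wrn-1(gk99) vitC against N2, and 0 in wrn-1(gk99) vitC against N2 vitC and for the difference of responses. With a pseudocount of 0.1, a mean of at least 50 or no trend, 1 gene passed for the difference of responses. With all nonzero genes, equal totals, equal upper quartiles, edgeR or the study's criteria, 1 passed in wrn-1(gk99) vitC against N2. By the study's criteria 0 passed in wrn-1(gk99) against N2. With only the groups compared, 4 passed in wrn-1(gk99) against N2, where 64.1% of all genes did, and 2 in wrn-1(gk99) vitC against wrn-1(gk99). In N2 vitC against N2 that setting gave 0, where 2.1% of all genes passed. At an adjusted p under 0.05, 3 passed in wrn-1(gk99) against N2, 3 in wrn-1(gk99) vitC against N2, 2 in wrn-1(gk99) vitC against wrn-1(gk99) and 2 for the difference of responses. Leaving out 1 library gave 2 to 4 in wrn-1(gk99) against N2, 0 to 3 in wrn-1(gk99) vitC against wrn-1(gk99), 1 in N2 vitC against N2, 1 to 3 in wrn-1(gk99) vitC against N2, 0 to 2 in wrn-1(gk99) vitC against N2 vitC and 0 to 1 for the difference of responses, the highest each time with N2 vitC replicate 3 left out. With that library left out, the shares of all genes passing were, in the same order, 62.9%, 28.5%, 36.4%, 50.4%, 52.0% and 34.1%. The counts of the 5 genes thus moved together with the share of all genes. The cause of these shifts was not tested.

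Equal totals moved the median of all genes to 0.17 in wrn-1(gk99) against N2 and to 0.185 in wrn-1(gk99) vitC against N2. Signs turned only for values that did not pass either way. With equal totals egl-9 was at 0.0656 in N2 vitC against N2, 0.0981 in wrn-1(gk99) vitC against N2 and 0.0325 in wrn-1(gk99) vitC against N2 vitC, nhr-57 at 0.00714 in the last, and the hif-1 difference of responses at −0.0769. With equal upper quartiles vhl-1 was at −0.0177 in wrn-1(gk99) against N2. EdgeR gave egl-9 0.0107 in N2 vitC against N2 and hif-1 −0.0614 for the difference of responses, where DESeq2 gave hif-1 −0.0119. Leaving out 1 library gave vhl-1 −0.0626 to 0.0594 in wrn-1(gk99) against N2, egl-9 −0.139 to 0.024 in wrn-1(gk99) vitC against N2 vitC, and hif-1 −0.127 to 0.0896 for the difference of responses. The share of all genes passing ranged from 10.8% to 64.1% in wrn-1(gk99) against N2, from 1.8% to 28.5% in wrn-1(gk99) vitC against wrn-1(gk99), from 2.1% to 36.4% in N2 vitC against N2, from 3.7% to 50.4% in wrn-1(gk99) vitC against N2, from 0% to 52% in wrn-1(gk99) vitC against N2 vitC and from 6.14% to 34.1% for the difference of responses.

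The deviations of libraries with the same replicate number had r over 0.1 in 5 of 18 pairs (−0.0813 to 0.165). Pairs with different numbers had r between −0.133 and 0.104. Of the 12 libraries, 8 correlated best with their own number, and all pairs of replicates numbered 1 or 3 had a positive r. This is a hint of pairing from the data and not from the design. It cannot decide whether replicates were paired, because N2 vitC replicate 3 shifts the deviations of its whole group. With the replicate block the counts stayed at 2, 0, 1, 2, 0 and 0, rhy-1 in N2 vitC against N2 at 1.02 and nhr-57 in wrn-1(gk99) against N2 at −0.59. The fit with only the groups compared was not run for the difference of responses, which needs all groups. At 93 to 388 reads for rhy-1 and 95 to 254 for vhl-1, counting limits the precision more than for hif-1, with 2999 to 9557.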
